A study of Drosophila melanogaster with 144 samples.

Results

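Long non-coding RNA (lncRNA) genes expressed in fly heads are described here. Of 17381 genes in the deposited count table, 1892 carry a FlyBase symbol that begins with lncRNA:, and 1807 of these had at least 1 count. The 82 genes described were chosen by their mean level, at least 2 CPM (counts scaled to 1000000 gene counts in a library) over all 144 libraries, and roX1 and roX2, the dosage-compensation RNAs of the male X chromosome, were left out. The choice used the levels themselves, so the levels are a description and carry no test. The last genes inside the limit were CR46003 at 2.04, CR32658 at 2.07 and CR45156 at 2.08 CPM. The first outside were CR46123 at 1.95, CR44851 at 1.85 and CR44023 at 1.82 CPM. Of the 82, 66 reached 2 CPM in both lines and 62 in each of the 4 classes of line and sex. Under 2 CPM were 5 genes in Canton-S B, 11 in DGRP_892, 9 in females and 1 in males, so these entered through the other line or sex. All 82 passed the filter on low counts.

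lncRNAs are transcripts without a long conserved reading frame. Some act in the nucleus as scaffolds for RNA-binding proteins, some are precursors from which microRNAs are cut, and for most fly lncRNA genes no function is known. Many lie in introns of, or antisense to, coding genes, and many are found mainly in neurons or testis. Only those with a poly(A) tail are captured by the library method used here.

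Heads came from adult virgin flies of DGRP_892, which belongs to a panel of inbred Drosophila lines and has a long circadian period, and of Canton-S B in a w1118 background, with a period of 24 h. Per the labels, cultures of each line were started from a few virgin parents. The comparison is between 2 lines and not between alleles of a gene. Flies had 3 days of 12 h light and 12 h darkness in 1 of 2 incubators with opposite cycles, then 3 days of constant darkness in a common one, and were frozen every 2 h. Each of the 144 libraries pooled 150 heads of 1 sex, with 3 libraries for each of 48 groups (line, sex and circadian time, CT), and the labels say that the collection was done 3 times.

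Gene counts per library, in units of 1000000, ran from 11.7 to 37.3 (median 15.2), with 48 libraries at 25.5 or above and 96 at 18.01 or below. Both depth classes held both lines and both sexes. Library numbers were divided here into runs of 24, which the labels do not name. The deeper libraries were runs 1 and 4 and the shallower ones runs 2, 3, 5 and 6. Results by run and by depth class are therefore not separate checks. The white gene, which is mutant in the w1118 background, was at most 0.788 CPM in Canton-S B and at least 18.8 CPM in DGRP_892. roX1 was at most 91.2 CPM in females and at least 1357 CPM in males, so line and sex labels matched the libraries. Among the libraries 1 stood apart. Replicate 2 of Canton-S B females at CT4 had 4501 scaled CPM of Hsp68 (median 22.5 in the other libraries), 2632 of Hsp26 (median 9.08) and 7233 of Hsp83 (median 1064), which encode heat-shock chaperones. Scaled CPM are CPM after TMM scaling (a correction of library totals for a few very abundant genes), the scale on which all folds below were tested. Libraries numbered replicate 2 had a median of 1951 scaled CPM of Hsp83, against 984 and 1037 for replicates 1 and 3.

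The 82 genes together took 0.383% to 0.668% of a library's gene counts (median 0.515%). CR42862 alone took 0.241% to 0.420%. Their median level was 6.02 CPM, against 34.03 CPM over all 8931 genes at 2 CPM or more. At 100 CPM or more were 6 genes, 23 lay between 10 and 100 CPM, and 53 were under 10 CPM. CR42862 (chromosome 3L, 224106 to 230964, plus strand, release 6 coordinates) averaged 3298 CPM, and 601 CPM per kb of exon. Its scaled CPM ran from 2737 to 3863 in Canton-S B (median 3144) and from 2753 to 3977 in DGRP_892 (median 3384), so the lines overlapped over most of their range.

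Per kb of exon, CR42862 was followed by CR34335 at 360, noe at 329, mimi at 127.2, CR32368 at 100.95, CR40469 at 93.8, CR44922 at 53.5, CR44832 at 49.5, CR31781 at 29.2 and CR44417 at 28.9 CPM per kb. These are levels per length. The exon lengths are from a later annotation than the one used for counting, so the order of genes is approximate. noe is a non-coding RNA of the nervous system. CR34335 (chromosome X, 3545750 to 3546110) is a single exon of 361 bases within the span of DIP-alpha, a neuronal cell-surface protein gene. Hsromega, the heat-shock RNA that gathers hnRNP proteins into nuclear omega speckles, averaged 238 CPM over an exon length of 21710 bases, which is 10.98 CPM per kb. let7C, the precursor of the let-7, mir-100 and mir-125 microRNAs, was at 2.29 CPM, or 0.937 per kb.

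**Figure D1:**
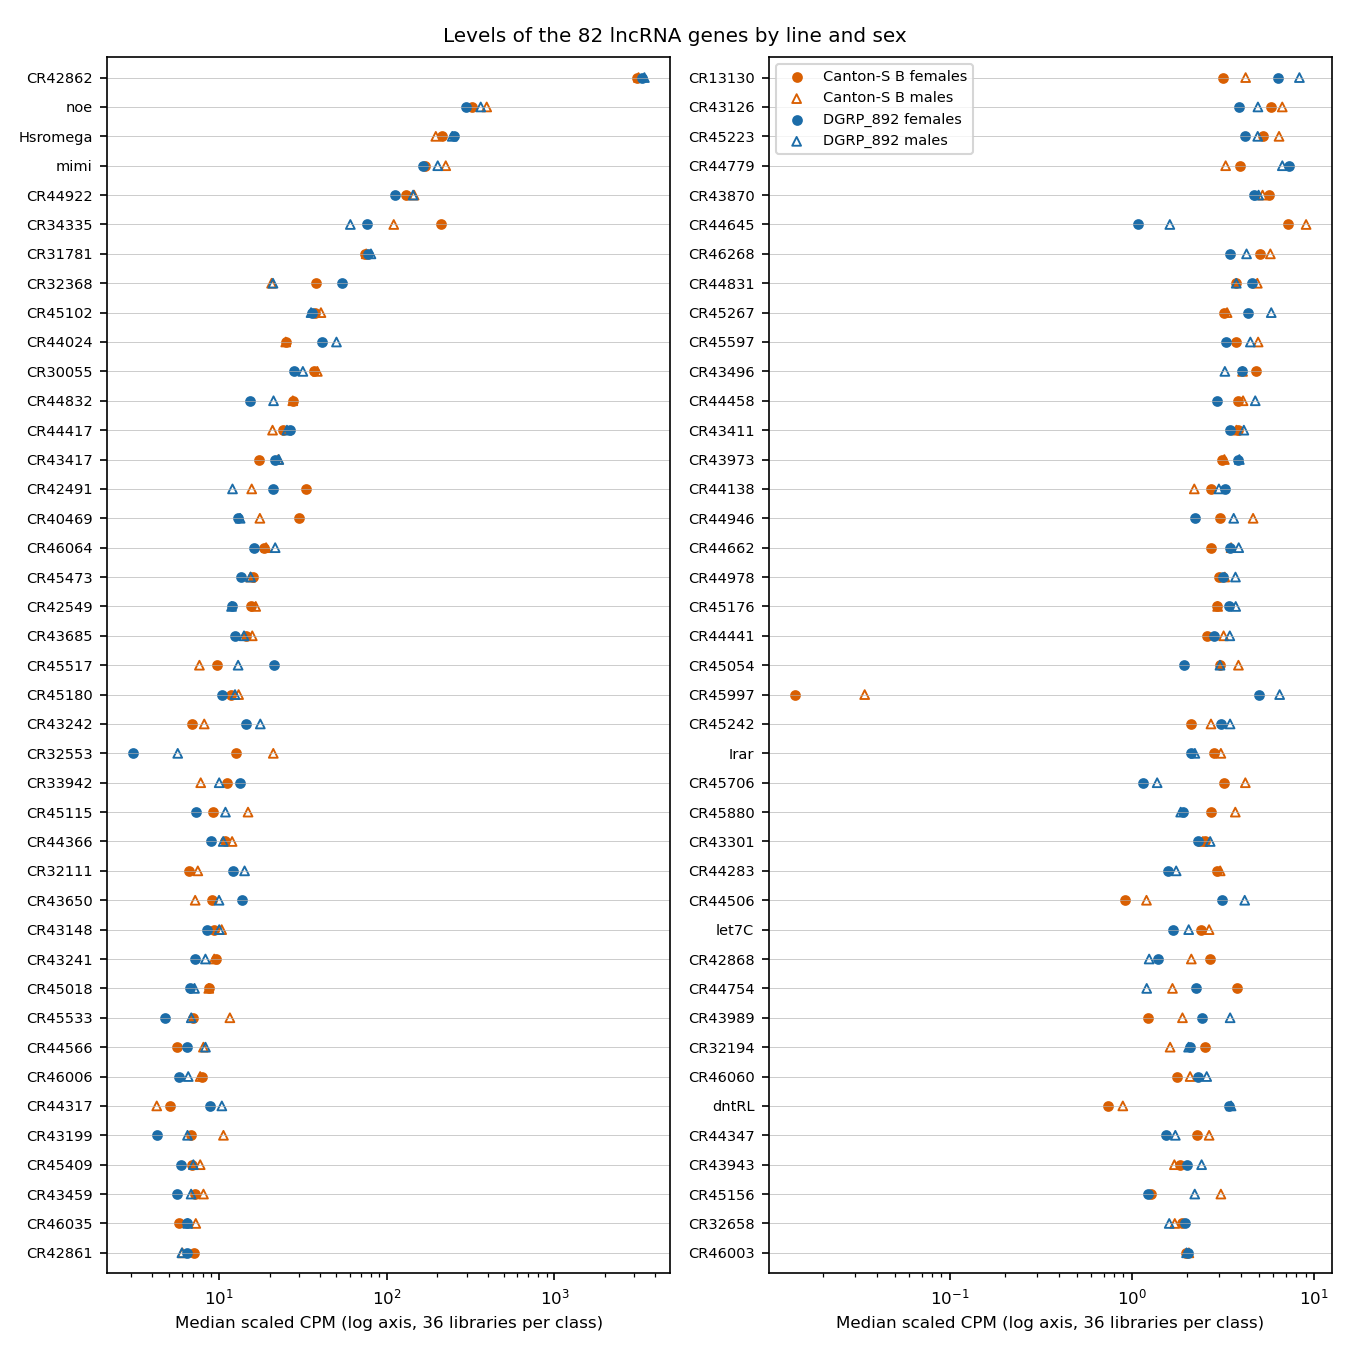
Median scaled CPM (log axis) of each of the 82 lncRNA genes in the 4 classes of line (colour) and sex (symbol), 36 libraries each, ordered by mean CPM. CR42862 lies far above the rest, and CR45997 is the gene whose lines are farthest apart.

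By position, 18 lay on chromosome X (21.95%, against 16.3% of all genes at 2 CPM or more), 10 on 2L, 15 on 2R, 20 on 3L, 17 on 3R and 2 on chromosome 4. Exon lengths ran from 214 to 21710 bases (median 1362), and 50 of the genes had 1 exon. No other gene's exons were touched by 58 genes, 24 shared exon bases with another gene (10 on the same strand and 15 on the opposite strand), and 16 of the 58 lay inside the span of another gene. The sources used here do not state whether the authors' counting used strand, so values of the 24 overlapping genes are uncertain. MicroRNA genes lie within 6 of the lncRNA genes, namely Hsromega (mir-4951), mimi (mir-9381), CR43650 (mir-8), CR46006 (mir-276a), CR43459 (mir-34 and mir-277) and let7C. CR42491 shares 377 of its 747 exon bases with RpL22, a ribosomal protein gene that was not analysed here.

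Comparing the lines, 67 of 82 lncRNA genes passed the adjusted threshold of 0.05, beside 67.3% of all 10894 genes tested. Higher in DGRP_892 were 27 genes (30.9% of all genes were) and lower were 40 (36.4% of all genes were). The median log2 fold change was -0.11 for the 82 genes and -0.02 for all genes. At least 2-fold and called were 9 genes, where 7.64% of all genes were, and 5 of the 9 (CR45997, dntRL, CR44506, CR44645 and CR45706) were under 2 CPM in the line where they are low, so nothing is read from that count. Among the 66 genes at 2 CPM or more in both lines, 22 were higher and 31 lower. With ERCC spike-in totals 17 of the 82 were higher and 32 lower, beside 1711 and 1940 of all 10894 genes. Below, folds of genes that were under 2 CPM in one line or sex are a description with no test, because such a gene was chosen through the group where it is high. In bulk heads, fewer cells of a type and less RNA per cell cannot be told apart. Marker lists moved with the lines: 9 of 10 flight muscle genes and 5 of 8 haemocyte genes were lower in DGRP_892, 7 of 11 fat body genes were higher, 5 of 12 photoreceptor genes were higher and 5 lower, and 6 of 11 neuron genes were lower (1 of 11 with ERCC totals). The photoreceptor list summed to 64609 to 88454 scaled CPM in Canton-S B females and 83818 to 118573 in DGRP_892 females. Summed over its 11 genes, the neuron list ran from 3310 to 6796 scaled CPM in Canton-S B females, 4230 to 8064 in Canton-S B males, 2738 to 6974 in DGRP_892 females and 3758 to 7741 in DGRP_892 males. The 10 flight muscle genes summed to 2981 to 4966 in Canton-S B females and 2576 to 4862 in DGRP_892 females. Their part in the line differences was not tested.

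CR45997 had the largest line difference. This single-exon gene of 410 bases lies at 17262339 to 17262748 on chromosome 2R, inside the span of mbl (a splicing factor gene) on the same strand. In Canton-S B it was at 0 to 0.264 scaled CPM (median 0.0291), with 63 counts in all over 72 libraries and none in 34 of them. DGRP_892 libraries had 2.44 to 11.03 (median 5.73) and 7938 counts. The ranges did not overlap, which was so for 2 of the 82 genes and for 1.58% of all genes. Both of the 2 were under 2 CPM in one line, so nothing is read from that count. Its fitted log2 fold change was 7.23, higher in all 24 pairs of sex and time. With so few counts in Canton-S B the size depends on the scale: it ran from 6.91 to 7.47 in the other fits on counts and was 2.41 on the authors' deposited values. mbl itself had a log2 fold change of 0.32 (adjusted p = 4.07e-08). Sex and time effects of CR45997 in Canton-S B are not given, since the counts there are too few for a usable estimate.

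Among genes higher in DGRP_892, the next by fold was dntRL, on chromosome 2R at 4621118 to 4622481. Its libraries held 0.218 to 2.00 scaled CPM in Canton-S B (median 0.861) and 1.78 to 6.66 in DGRP_892 (median 3.43), so that the ranges touched only at their ends. The log2 fold change was 2.08 (SE 0.08). CR44506 had 0.235 to 2.28 in Canton-S B (median 1.09) and 1.43 to 5.32 in DGRP_892 (median 3.62), a log2 fold change of 1.75 (SE 0.07). It ends near Obp56a, an odorant-binding protein gene, which went the other way with a log2 fold change of -1.22. Also higher in all 24 pairs were CR43242 (1.09), CR13130 (1.04), CR44317 (1.01), CR44779 (0.99), CR32111 (0.92), CR43989 (0.92) and CR45517 (0.92), all as log2 fold changes. CR43242 is at 7.57 scaled CPM in Canton-S B and 16.1 in DGRP_892 as medians of 72 libraries, with ranges of 4.88 to 12.7 and 11.3 to 25.0. CR13130 shares 99 exon bases with the opposite strand of bib, an aquaporin-family gene of neurogenesis, whose log2 fold change was 0.03. CR43989 shares exon bases with the opposite strand of IRSp53, which had -0.24.

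Lower in DGRP_892, CR44645 led. It had 5.02 to 12.3 scaled CPM in Canton-S B (median 8.15) and 0.574 to 2.80 in DGRP_892 (median 1.31), without overlap. The log2 fold change was -2.60 (SE 0.05), and the fold is 6.07. Obp57a, the odorant-binding protein gene 437 bases away on the same strand, had a log2 fold change of -1.14. CR32553 on chromosome X (18124575 to 18127027) held 5.69 to 34.7 in Canton-S B (median 16.9) and 1.94 to 9.49 in DGRP_892 (median 3.97), a log2 fold change of -1.95 (SE 0.06, adjusted p = 3.58e-55). The ranges of the lines overlapped in part. CR45706 followed with -1.58, CR44283 with -0.81, CR45533 with -0.70, CR43199 with -0.69, CR44347 with -0.64, CR46268 with -0.56, CR44754 with -0.56 and CR43126 with -0.50. CR45533 (7445387 to 7450119) and CR43199 (7450383 to 7452199) follow each other on the plus strand of chromosome X, and their log2 fold changes for sex were 0.63 each. CR46268 shares 2313 exon bases with CG17490, which is near 0 in both lines, and CR44645 shares 201 with CR44644, near 0 in both.

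**Figure D2:**
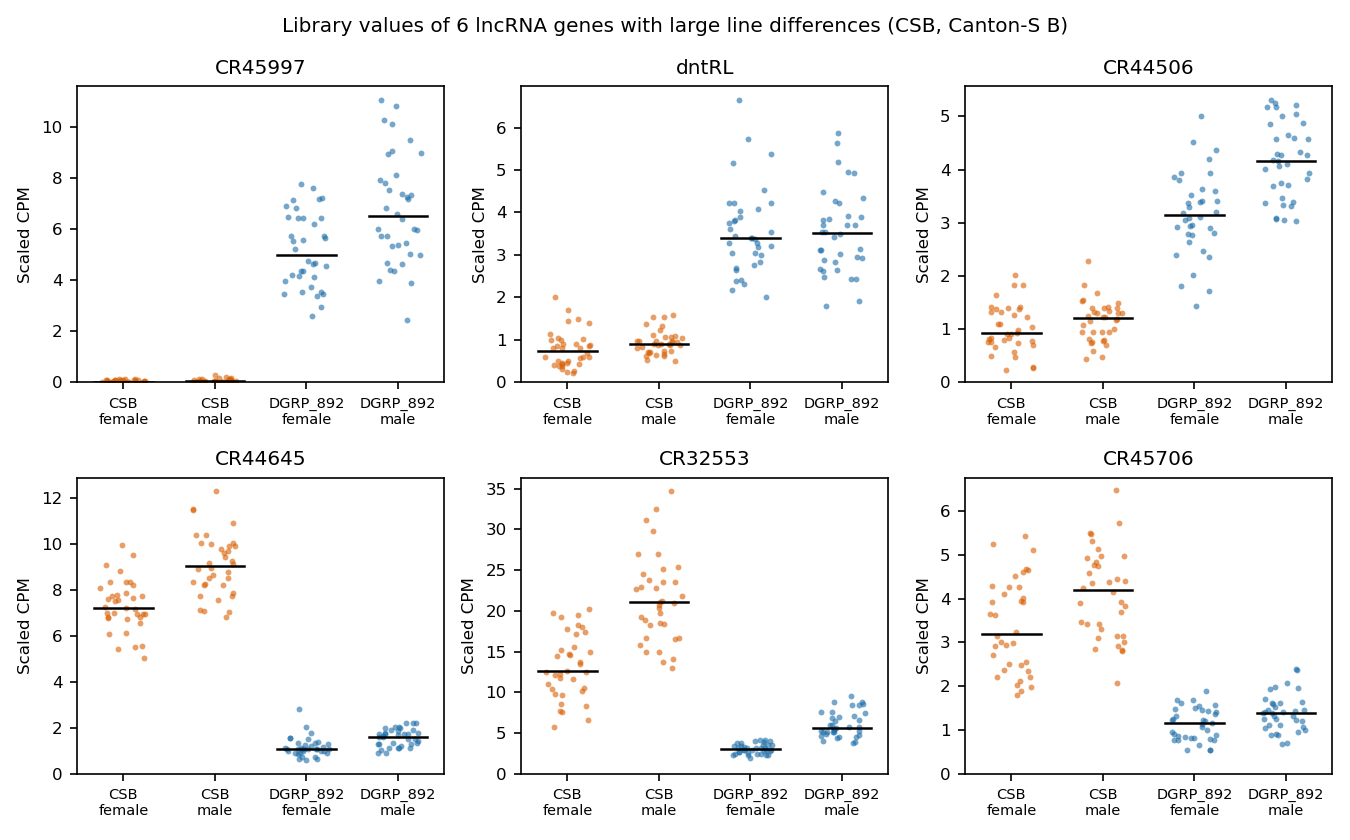
Scaled CPM of 6 lncRNA genes in every library (points, 36 per class) with class medians (bars). CR45997 and CR44645 do not overlap between lines, and CR32553 and CR45706 differ in the opposite direction to the top row.

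CR34335 ran from 67.3 to 396 scaled CPM in Canton-S B (median 137.7) and from 38.3 to 185 in DGRP_892 (median 71.5), with overlap, and its log2 fold change was -0.98 (SE 0.09, adjusted p = 1.52e-17). Lower in DGRP_892 in 22 of 24 pairs, it fell outside the rule for named lower genes and is named for its level. Its spread within groups was 0.55 on the log2 scale, against 0.33 at the median of the 82 and 0.23 of all genes tested. CR32368, CR40469, CR42868, CR32658, CR44138 and CR44832 were more variable still, from 0.87 down to 0.58, with exons of 214 to 836 bases. Runs of 24 library numbers moved with this spread: 54.7% of the within-group variance of CR40469 and 46.2% of that of CR44832 lay between runs, and 9.47% of that of CR32368. The part of these runs in the line differences was not tested.

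On chromosome X, 3 of 18 lncRNA genes were higher and 11 lower in DGRP_892 (median log2 fold change -0.33), against medians of -0.02 for lncRNA genes on autosomes (24 higher and 29 lower) and -0.02 for all 1710 X-linked genes tested (477 higher and 584 lower).

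Each lncRNA gene was also set beside the nearest coding gene whose current identifier is among the deposited counts. CR42491, CR44779 and CR43496 overlap coding genes whose current identifiers are not among the counts (RpL22, CG14629 with CG3655, and sov). They were paired with genes farther away. Of the 82, 72 had a nearest coding gene that was tested, and 49 pairs passed the threshold for both, of which 27 moved the same way. For sex, 37 pairs passed for both, of which 28 moved the same way. Across these 72 pairs, Pearson's r of the line log2 fold changes was -0.01 and Spearman's rho 0.11. For the sex log2 fold changes they were 0.10 and 0.12. These are correlations across genes, which share all libraries and are not independent replicates, so no p is given. How many pairs would move the same way from the direction of the calls alone was not worked out. CR45517 and CG16756, 266 bases apart on the same strand, had 0.92 and 0.89 for line and -0.52 and -0.54 for sex. CR44283 and CG8046, 39 bases apart on opposite strands, had -0.81 and -1.24 for line. Pairs in opposite directions for line included CR44506 with Obp56a (1.75 and -1.22), CR32553 with CG43133 (-1.95 and 3.74) and CR42868 with CG42867 (-0.61 and 1.81).

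**Figure D3:**
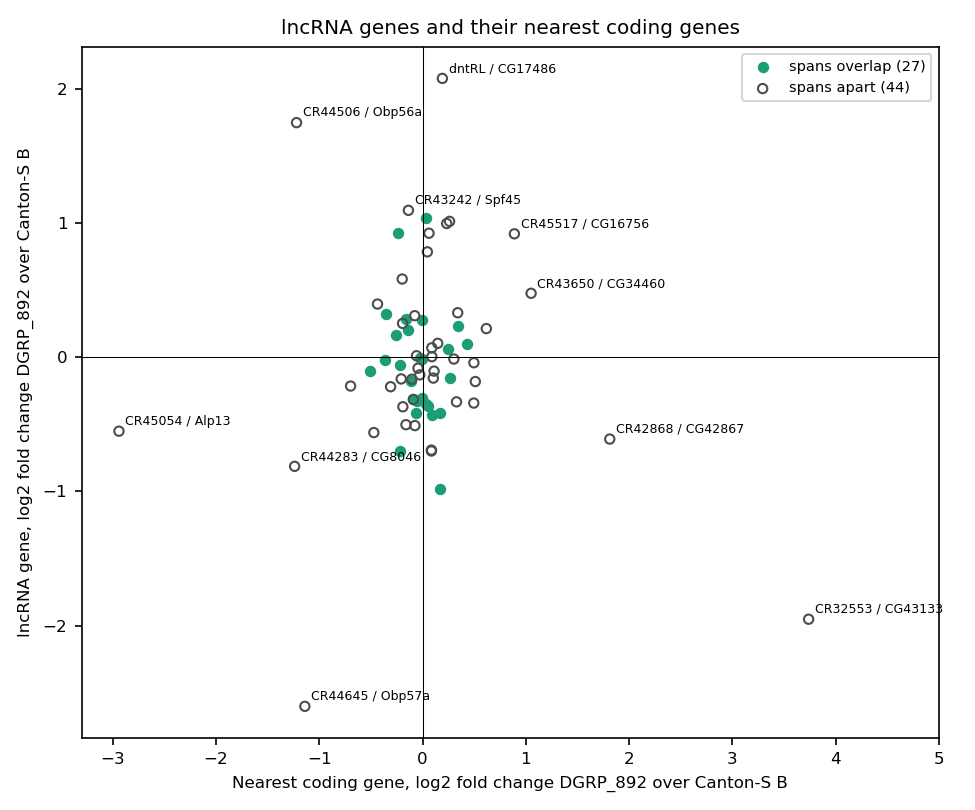
Line log2 fold change of 71 lncRNA genes (vertical) against the nearest coding gene among the deposited counts (horizontal). Filled points mark spans that overlap that gene (27) and open ones spans apart from it (44). CR42491, CR44779 and CR43496 are open, although they overlap coding genes whose current identifiers are not among the counts. CR45997 is left out of the plot for scale. CR45517 lies with its neighbour in the upper right, and CR44506 lies opposite to its neighbour in the upper left.

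Between the sexes, 62 of 82 lncRNA genes passed the threshold, against 65.6% of all genes. Higher in males were 48 (35.9% of all genes were), and lower were 14 (29.7% of all genes were). The median log2 fold change of males over females was 0.19, against 0.03 for all genes. Among the 72 genes at 2 CPM or more in both sexes, 41 were higher in males and 13 lower, while 9 of the 82 were under 2 CPM in females and 1 in males. The split moved with the scaling. With library totals from ERCC spike-ins, 61 were higher in males and 6 lower, with a median log2 fold change of 0.39. Of all 10894 genes, 5265 were then higher in males and 831 lower, with a median of 0.23. By TMM, 42 of 64 autosomal lncRNA genes were higher in males and 6 lower, and on chromosome X 6 of 18 were higher and 8 lower, which with ERCC totals became 8 higher and 4 lower. Of all genes tested, 3331 of 9091 on autosomes were higher in males and 2565 lower by TMM. On chromosome X 547 of 1710 were higher and 642 lower by TMM, and 710 and 169 with ERCC totals. Beside this, all 11 neuron markers, 5 of 8 glia markers and 8 of 12 photoreceptor markers were higher in males, while 10 of 11 fat body, 8 of 8 haemocyte and 7 of 10 flight muscle genes were lower. Of 23 genes for nuclear RNA decay and poly(A) processing, 16 were lower in males and 1 higher (4 and 3 with ERCC totals, which turn the list's median from -0.11 to 0.10). The lower ones by TMM include the exosome subunits Rrp46 at -0.68, Rrp4 at -0.67 and Rrp40 at -0.46. Summed fat body markers ran from 31703 to 127129 scaled CPM in Canton-S B females and from 3875 to 13703 in Canton-S B males, so these ranges did not overlap. Testis and accessory gland markers (11 genes, of which 5 were at 0 in Canton-S B females) summed to at most 2.64 in any female library, with medians of 1.95 and 1.96 and highest values of 231 and 169 in males of Canton-S B and DGRP_892. Their part in the sex differences was not tested.

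CR45156, on chromosome 3L and opposite to Cip4, was the most male-biased. It had 0.293 to 2.72 scaled CPM in females (median 1.24) and 0.975 to 5.58 in males (median 2.60), overlapping over part of the range. The log2 fold change was 1.16 (SE 0.08), higher in all 24 pairs of line and time, in a gene under 2 CPM in females. CR32553 had 1.94 to 20.3 in females (median 4.94) and 3.73 to 34.7 in males (median 11.3), with a log2 fold change of 0.85. Within Canton-S B the medians were 12.6 and 21.04, within DGRP_892 3.05 and 5.66. CR44946 (0.64), CR45115 (0.63) and CR45533 (0.63) followed. Cip4, an actin-regulator gene that surrounds CR45156, had a log2 fold change of 0.14.

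CR44754, on chromosome X, was the most female-biased. It had 1.24 to 5.41 scaled CPM in females (median 2.79) and 0.376 to 2.66 in males (median 1.47), a log2 fold change of -0.99 (SE 0.06), lower in males in all 24 pairs, in a gene under 2 CPM in males. CR42491 had 12.1 to 46.8 in females (median 26.2) and 7.66 to 24.6 in males (median 14.2), a log2 fold change of -0.92. Part of its exons lie in RpL22. CR33942 on 2R had 7.79 to 21.7 and 4.96 to 15.2 (medians 12.7 and 8.98), with -0.50. These 3 were the only genes lower in males in all 24 pairs, and 11 genes were higher in all 24.

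**Figure D4:**
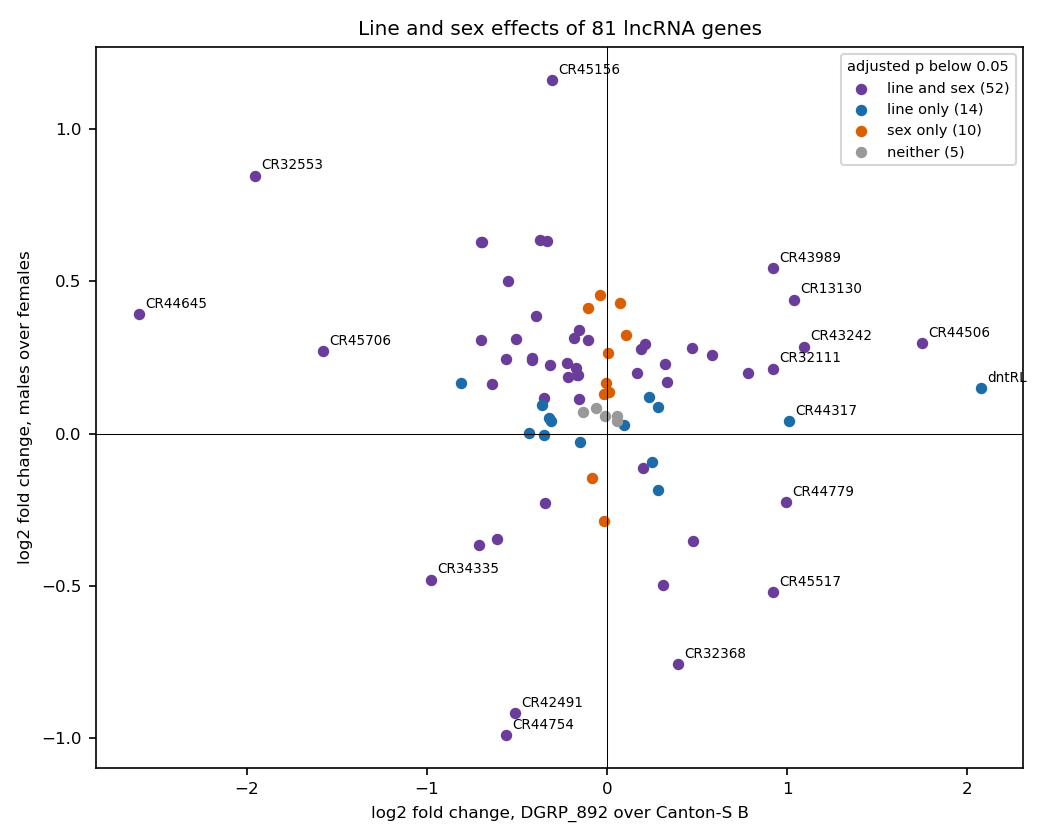
Line effect (horizontal, DGRP_892 over Canton-S B) against sex effect (vertical, males over females) of 81 lncRNA genes as log2 fold changes. Both effects passed for 52, line alone for 14, sex alone for 10 and neither for 5. CR45997 is left out for scale, and its sex estimate rests in part on the 63 counts of Canton-S B.

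The sex difference itself differed between the lines in 6 of 82 lncRNA genes, against 12.7% of all genes. CR32194 was lower in males in Canton-S B (log2 -0.61, male mean higher at 0 of 12 times) and near equal in DGRP_892 (0.04). Its libraries had medians of 2.53 in Canton-S B females, 1.62 in males, and 2.09 and 2.05 in DGRP_892. The difference of the sex effects was 0.64 (SE 0.15, adjusted p = 0.00106). It shares 288 exon bases with CG34253 on the same strand. CR44831 went the other way, with 0.35 in Canton-S B and -0.19 in DGRP_892 (difference -0.54, SE 0.13, adjusted p = 0.00107), and shares 20 exon bases with pdgy. CR44317 had -0.23 and 0.31 (difference 0.53, adjusted p = 0.000200), CR45267 had 0.09 and 0.42 (0.33), CR46035 had 0.32 and 0.01 (-0.32) and CR46064 had 0.11 and 0.42 (0.30). CR46064 was named after its value was seen. Without replicate 3 the count was 1, and with ERCC totals or in the deeper libraries alone it was 0, against 1381 interactions over all genes in the full data and 67 in the deeper libraries.

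A 24-h rhythm in Canton-S B passed in 7 of 82 lncRNA genes (6.01% of all genes did) and in DGRP_892 in 0 (0.477% of all genes did). In DGRP_892 10 genes had an unadjusted p under 0.05 by the edgeR fit to all libraries, with the filter and no block. The lowest adjusted p of that fit was 0.0535. Several alternative fits, listed in the last section, called 1 to 2 genes. No gene differed between lines over time (0.156% of all genes did; 4 under an unadjusted p of 0.05) or between sexes over time (0.413%; 5). A rhythm called in 1 line only is therefore not shown to differ between the lines. Amplitudes are given as log2 distance from mean to peak.

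CR44138 lies opposite to the span of CG9813 on 3R. In Canton-S B its mean was lowest at CT16 (1.97 scaled CPM ± 0.55, SD, n = 6) and highest at CT4 (9.99 ± 8.87). In DGRP_892 the lowest, at CT16, was 2.64 ± 0.75 and the highest, at CT4, 6.67 ± 7.83. The amplitude of CR44138 in Canton-S B was 0.63 (peak 4.59 h, adjusted p = 0.000175). Its 3 highest libraries were all at CT4: 24.6 in a Canton-S B female library (replicate 1), 22.6 in a DGRP_892 female library (replicate 3) and 15.97 in a Canton-S B male library (replicate 1). Without the 12 libraries of CT4 (chosen as an alternative after seeing the data) its amplitude was 0.27 (adjusted p = 0.273), and without the libraries numbered replicate 1 it was also 0.27 (adjusted p = 0.673), so its call rests on these libraries.

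CR45054 on 3R, whose end lies before the start of the mir-277 host CR43459 on the same strand, ran from 2.35 ± 0.93 at CT20 to 5.32 ± 2.14 at CT4 in Canton-S B. Its amplitude was 0.41 (peak 6.96 h, adjusted p = 0.000131), and in DGRP_892 0.12. In Canton-S B, dntRL ran from 0.641 ± 0.225 at CT18 to 1.31 ± 0.26 at CT8 (amplitude 0.41, adjusted p = 0.00105). Its fitted peak in DGRP_892 was 12.8 h with an amplitude of 0.13. CR32553 in Canton-S B ran from 12.2 ± 6.11 at CT16 to 24.0 ± 6.25 at CT8 (amplitude 0.29, adjusted p = 0.000221). CR45156 in the same line ran from 1.76 ± 1.26 at CT20 to 3.10 ± 1.59 at CT10 (0.31, adjusted p = 0.0169). The SDs at each time pool both sexes, so those of CR32553 and CR45156 include their sex difference. CR32111 ran the other way in Canton-S B, lowest at CT8 (5.73 ± 0.65) and highest at CT16 (8.82 ± 1.69). Its amplitude was 0.18, with a peak at 18.7 h (adjusted p = 0.00222). Leaving out replicate 3 ended the calls of dntRL (amplitude 0.29, adjusted p = 0.244), CR45156 (0.19, adjusted p = 0.560) and CR32111 (0.17, adjusted p = 0.0895), leaving 3 calls. Leaving out replicate 1 ended that of CR45156 (amplitude 0.34, adjusted p = 0.138), leaving 4. With ERCC totals none of the 7 passed, where 37 of all genes did, and in the deeper libraries alone none passed, where 74 of all genes did. The amplitude of CR45054 was 0.38 with ERCC totals and 0.62 in the deeper libraries, and that of CR32553 was 0.28 and 0.39, so these calls were lost without a marked fall in amplitude.

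Hsromega was lowest at CT16 (174 ± 27.2) and highest at CT4 (303 ± 168) in Canton-S B, with an amplitude of 0.19 (peak 6.20 h, adjusted p = 0.0250). Its libraries ran from 133.9 to 639 scaled CPM in that line, and the 639 is the library with the high heat-shock RNAs. Without that library, an alternative chosen after seeing the data, the amplitude was 0.14 and the adjusted p was 0.106, and the call was also lost without replicate 1 (amplitude 0.21, adjusted p = 0.236), replicate 2 (0.14, adjusted p = 0.0834) or replicate 3 (0.22, adjusted p = 0.101). The line difference of Hsromega was 0.25 (SE 0.05, adjusted p = 2.58e-06), higher in DGRP_892 in 23 of 24 pairs. Its call held in 13 of 14 alternatives, with log2 fold changes of 0.20 to 0.31, and was lost with ERCC totals. Of 13 genes for proteins of omega speckles or their regulators, 4 were higher and 4 lower in DGRP_892, among them Hrb87F, the hnRNP named with Hsromega, at 0.24. The median of the 13 was -0.02, and with ERCC totals 0 were higher and 0 lower.

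**Figure D5:**
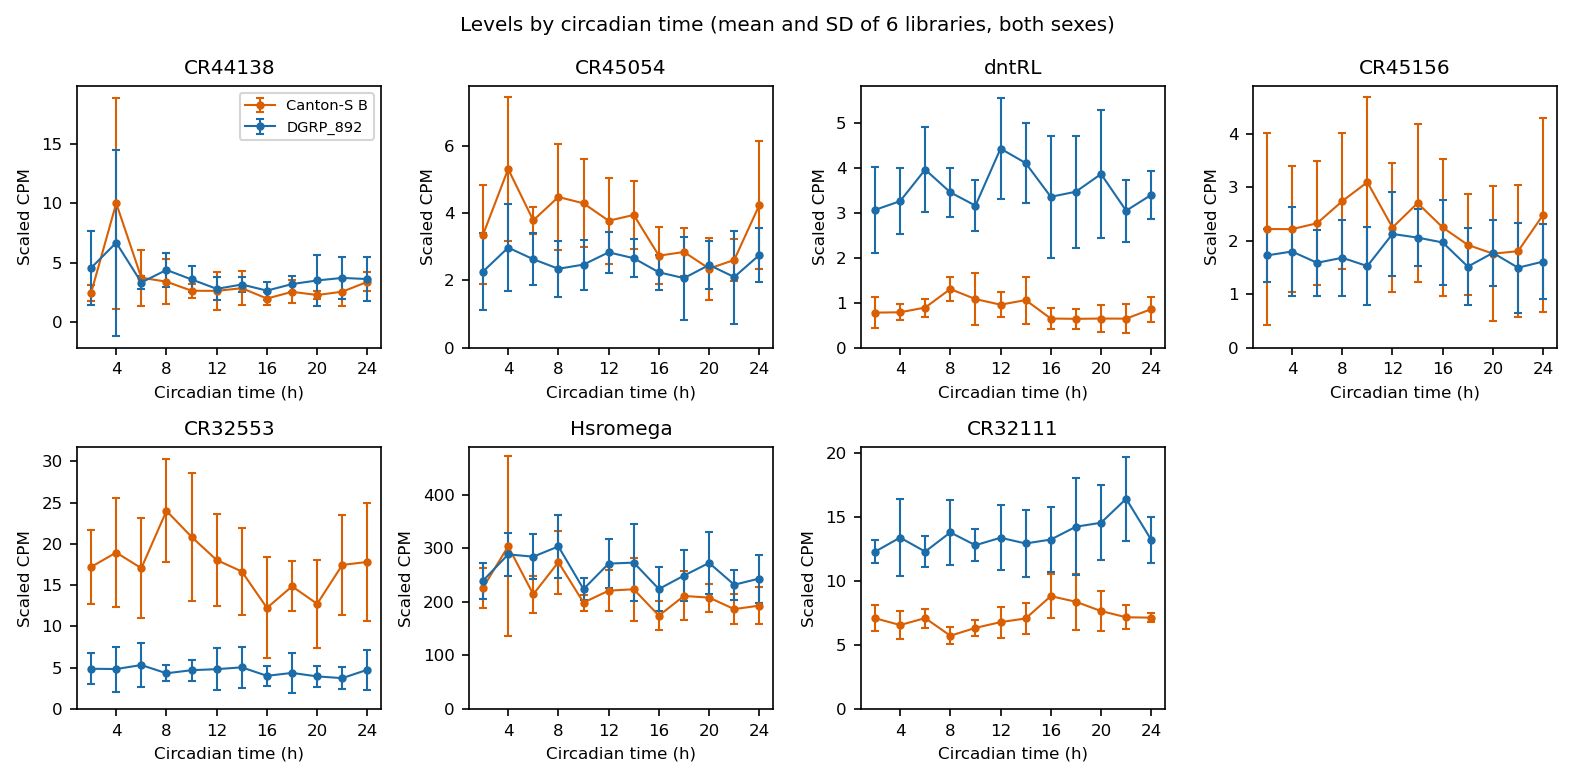
Scaled CPM by circadian time in Canton-S B (orange) and DGRP_892 (blue) of the 7 lncRNA genes with a called rhythm in Canton-S B; points are means and bars SDs of 6 libraries, both sexes. CR44138 stands high at CT4 with a wide bar, and Hsromega in Canton-S B has its widest bar there too.

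Among the 6 microRNA hosts, 2 were higher and 4 lower in DGRP_892, where 30.9% of all genes were higher and 36.4% lower. With ERCC totals 1 host was higher and 3 lower, beside 1711 and 1940 of all 10894 genes. CR43650, the mir-8 host, was at 8.12 scaled CPM in Canton-S B and 11.6 in DGRP_892 (medians), a log2 fold change of 0.48. CR43459 (mir-34 and mir-277) had -0.32, CR46006 (mir-276a) -0.35, let7C -0.42 and mimi -0.16. The host transcript's level says nothing measured of the mature microRNA, which is not analysed here. Irar, antisense to the span of InR (the insulin receptor gene), was at 2.93 scaled CPM in Canton-S B and 2.19 in DGRP_892 as medians, a log2 fold change of -0.36 (adjusted p = 8.70e-09), while InR had 0.06.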

How the data were processed

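RNA of 144 head libraries was measured by poly(A) RNA-seq. Per the submitters' processing notes, the authors used FastQC 0.11.5, STAR 2.5.3a and featureCounts 1.5.2, and per the labels the reference was FlyBase release 6 version 1 plus ERCC sequences. Raw counts of reads on 17381 genes and 92 ERCC spike-in transcripts were deposited by the authors. They also deposited values for 11525 genes after TMM scaling and batch correction. These deposited values are taken as a score, since 3.31% lie below 0, and the sources used here do not state the correction. A count column matching no sample (1 in all) was not used.

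Symbols, spans and exons came from Ensembl release 115, which named 17239 genes. The lncRNA genes, gene lists and named-gene rule were chosen with earlier results of these data known. The filter on low counts (edgeR's filterByExpr with the 48 groups, at least 10 counts and 15 in total) left 10894 genes. Tests used edgeR 4.0.16 in R 4.3.3 with TMM scaling and quasi-likelihood F tests; adjusted p are Benjamini-Hochberg over all 10894 genes at a threshold of 0.05. The line, sex and line-by-sex effects were contrasts over 48 group means, and 24-h rhythms were cosine and sine terms for each line and sex. Libraries are separate pools of heads from 3 collections. P-values measure the spread between these pools. Named were the 10 highest per kb, up to 10 higher and 10 lower by line with the same sign in all 24 pairs, 5 each by sex, the 5 largest interactions, up to 8 rhythms a line and the characterised list. DESeq2 1.42.0 and limma 3.58.1 served as alternatives. Figures were drawn with matplotlib in Python.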

Additional observations from a re-analysis of the deposited data

Results flagged for a closer look

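In 6 of 82 lncRNA genes the male-female difference itself differed between the lines by the edgeR interaction test at an adjusted p below 0.05. Of all genes tested 12.7% did. The calls in lncRNA genes were lost with ERCC totals and in the deeper libraries alone. The difference of the log2 sex effects (DGRP_892 minus Canton-S B) was 0.64 for CR32194, -0.54 for CR44831, 0.53 for CR44317, 0.33 for CR45267, -0.32 for CR46035 and 0.30 for CR46064. CR32194 and CR44831 share exon bases with a coding gene on the same strand, and CR46064 shares 735 with CR43281 on the opposite strand.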

How the results depend on the processing

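Total line and sex counts stayed within 1.5 times under each alternative, but counts by direction did not: line higher went from 27 to 17 with ERCC totals, and lower in males from 14 to 6 with ERCC totals, 8 in deeper libraries and 9 without replicate 3. For the effects by which genes were named, 504 of 553 recomputed values kept direction and side of the threshold and 49 lost the call, 12 of them with ERCC totals and 12 in the deeper libraries. None of these changed sign, but with ERCC totals 2 of the 62 sex calls did, CR44417 (-0.11 to 0.09) and CR42861 (-0.15 to 0.05). The cause was not tested. Over all genes, 7330 line calls became 3651 with ERCC totals, 7147 sex calls became 4247 in deeper libraries, 1381 interactions became 67 there, and 655 rhythms became 1301 with library runs.

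Line by sex calls were 0 with ERCC totals, 0 in deeper libraries, 12 with the authors' values and 3 among genes without exon overlap; leaving out 1 replicate gave 1 to 9. Canton-S B rhythms numbered 0 with ERCC totals, 11 with library runs as covariate, 0 in deeper and 3 in shallower libraries, and leaving out 1 replicate gave 3 to 7. DGRP_892 rhythms numbered 1 with DESeq2, 1 without the filter on low counts, 1 with the replicate block, 2 with library runs, 1 with the authors' values, 1 for any difference among 12 times and 1 without the heat-shock library. That alternative and the one without CT4 were chosen after seeing the data. The genes described are 4.33% of all lncRNA genes in the table, and a limit of 1 CPM would take 7.24% and of 5 CPM 2.43%.

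The labels give 3 repeats of the procedure without tying them to the numbers. Same-numbered libraries of other groups had a mean correlation of deviations of 0.05. Different numbers had -0.03, which is tied to the first value because deviations were taken from each group's mean. Libraries in the same run of 24 library numbers had 0.11. Replicate 2 shared high Hsp83, so the replicate numbers may in part mark a shared collection. With the replicate block, 67 line, 62 sex, 7 interaction and 8 Canton-S B rhythm calls were made, and 0 for either time difference. Leaving out 1 replicate gave 61 to 66 line calls and 53 to 59 sex calls. Depth limits the genes near 2 CPM.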
